A study of Bos taurus with 18 samples.

Results

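The family of *miR-148a*, *miR-148b* and *miR-152* is a group of microRNAs that share the same seed, the stretch near the 5′ end with which a microRNA (miRNA) recognises its target mRNAs. Its members in the deposited table of CPM-normalized counts were taken by name as *bta-miR-148a*, *bta-miR-148b* and *bta-miR-152*, which are 3 of the 1071 miRNAs listed. All 3 were abundant enough to be tested in both plasma fractions. Plasma came from the jugular veins of 3 Japanese Black steers, fattened under the same feeding system and sampled at about 20, 25 and 30 months of age, so the same animals stand behind every age. Each of the 9 plasma samples was split on spin columns into RNA of exosomes (EX; small vesicles released by cells) and non-exosomal, protein-bound free circulating RNA (FC), which gave 18 small RNA libraries in 6 groups of 3. All animals were steers of a single farm and no other treatment was compared, so age is tied to the stage of fattening, and any difference between sampling days cannot be told apart from age. The labels number the libraries of a group, and the study's sample key says that this number stands for the steer.

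As background, a miRNA guides a silencing complex to mRNAs that pair with its seed, and miRNAs with the same seed can reach overlapping sets of targets. *miR-148a* is abundant in liver and in cow's milk, and it represses the low density lipoprotein receptor and the cholesterol exporter *ABCA1*. The members are also known as repressors of the DNA methyltransferase *DNMT1*. In plasma, a change of a miRNA can come from fewer releasing cells or from less RNA released per cell, and bulk libraries cannot tell these apart.

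The mature sequences, as the count table lists them, are shown because the seed defines the family and the bases outside it are what distinguishes the members. They are written 5′ to 3′ with the seed (bases 2 to 8) in capitals.
bta-miR-148a: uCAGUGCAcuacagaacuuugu
bta-miR-148b: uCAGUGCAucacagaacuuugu
bta-miR-152: uCAGUGCAugacagaacuuggg
Each is 22 bases long, so their levels need no correction for length. Other effects of the sequence on how well a miRNA is counted were not corrected for. The seed CAGUGCA was found at bases 2 to 8 of these 3 miRNAs and of none of the other miRNAs in the table. Of the 22 positions, 18 are shared by all 3, among them the first 8. Counted from the 5′ end with the base of *bta-miR-148a* first, *bta-miR-148b* differs by C9U and U10C (90.9% identity), and *bta-miR-152* by C9U, U10G, U20G and U22G (81.8% identity). Between *bta-miR-148b* and *bta-miR-152* the substitutions are C10G, U20G and U22G (86.4% identity). In the gene table of RefSeq (assembly ARS-UCD2.0), MIR148B overlaps the gene *COPZ1* and MIR152 the gene *COPZ2*, paralogues that code for subunits of the coatomer coat of transport vesicles. MIR148A overlaps no protein-coding gene in that table.

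A pair of names in the table looks like further members but belongs to the opposite strand. All 21 bases of *bta-miR-148c* are complementary to *bta-miR-152*, and 20 of the 22 bases of *bta-miR-148d* are complementary to *bta-miR-148a* (capitals).
bta-miR-148c: CCAAGUUCUGUCAUGCACUGA
bta-miR-148d: AAAGUUCUGUAGUGCACUGAcu
Both had 0 counts in all 18 libraries, which allows up to 3 counts per library. These 3 counts correspond to 1.08 to 3.03 CPM in an EX library and to 0.248 to 0.830 CPM in an FC library, a limit that leaves out errors other than counting, since reads copied by PCR are not independent molecules.

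The total number of counts assigned to miRNAs ranged from 991354 to 2778618 per EX library and from 3615234 to 12088735 per FC library, and was lowest at 30 months in both fractions (median 1082798 in EX and 3803203 in FC). The members stood far above the counting floor in every library. In EX, *bta-miR-148a* had 5091 to 15008 counts, *bta-miR-148b* 2403 to 5615 and *bta-miR-152* 809 to 3399. Counts were not whole numbers for all 3 members in 4 libraries and for 2 of them in 10 libraries, as when a read that matches several miRNAs is divided among them. Near-identical members can therefore share reads, and how many is not given by the table. In 4 FC libraries (steer 3 at 25 months and all 3 at 30 months) part of the lower count table was out of step with the CPM table. These counts were recomputed from CPM, and which table is right is not known. The members' own counts were not altered, but their tests in FC depend on the recomputation, as given beside the results. Since it covers all FC libraries at 30 months, it largely falls together with age.

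*bta-miR-148a* was the most abundant member in every library, *bta-miR-148b* followed and *bta-miR-152* was the least abundant. By mean CPM over 9 libraries they ranked 39, 62 and 78 among the 345 miRNAs tested in EX, and 27, 47 and 72 among the 358 tested in FC. The summed family made up 0.713 ± 0.047%, 0.566 ± 0.212% and 1.26 ± 0.226% of all miRNA counts in EX at 20, 25 and 30 months (mean ± SD, n = 3 each). In FC it made up 1.35 ± 0.068%, 1.00 ± 0.223% and 2.03 ± 0.173%. At 20 and 30 months the 3 FC libraries were above the 3 EX libraries, and at 25 months the groups overlapped. Of the 330 miRNAs tested in both fractions, 13.6% had every EX library below every FC library at 20 months. At 30 months this was 16.7%. In each fraction the 3 libraries at 30 months were above those at 20 and 25 months, as for 13.6% of the single miRNAs tested in EX and 10.3% in FC.

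**Figure D1:**
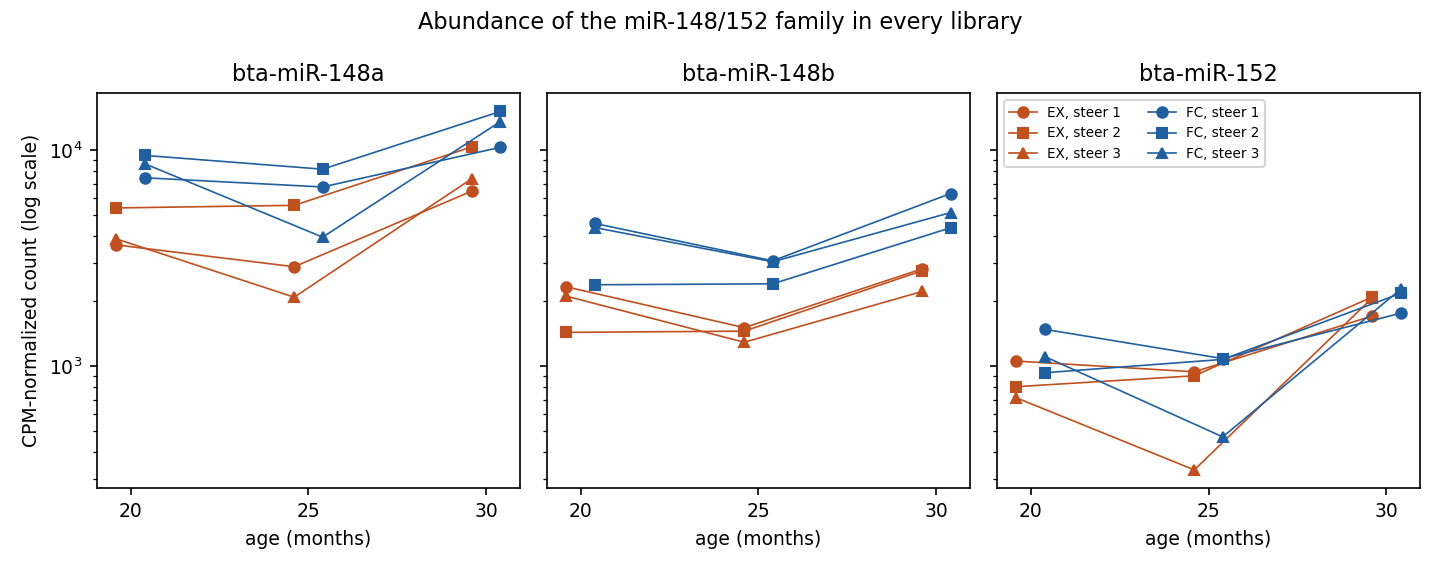
CPM-normalized counts (log scale) of each member against age in months, with 1 line per steer and fraction (EX in orange, FC in blue, symbols for steers). *bta-miR-148a* and *bta-miR-152* have their 3 highest libraries of a fraction at 30 months, the blue lines lie above the orange ones for *bta-miR-148a* and *bta-miR-148b* of the same steer, and the triangle of steer 3 at 25 months is the lowest point of *bta-miR-152* in both fractions.

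The first question was how the family changed over the last months of fattening, from 25 to 30 months. *bta-miR-148a* and *bta-miR-152* rose in both fractions, by 1.78 and 2.14 times in EX and by 1.95 and 2.31 times in FC as fitted, while the higher level of *bta-miR-148b* did not pass the test in either. Of these, *bta-miR-152* in EX and in FC also passed the limit of |log2 fold change| > 1 that defines a DE-miRNA (differentially existed miRNA) here, as did 14.2% of the miRNAs tested in EX and 15.6% in FC.

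In EX, *bta-miR-148a* stood at 2888, 5553 and 2089 CPM at 25 months in steers 1, 2 and 3, and at 6470, 10351 and 7385 CPM at 30 months. The lowest library at 30 months was above the highest at 25 months, and the level was higher in 3 of 3 steers. The log2 fold change was 0.83 (standard error 0.21, FDR 0.0332; edgeR quasi-likelihood test with steer as a block, adjusted by Benjamini and Hochberg over 345 miRNAs).

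*bta-miR-152* stood at 944, 905 and 332 CPM at 25 months in EX, and at 1709, 2091 and 2069 CPM at 30 months. The groups did not overlap, and the library of steer 3 at 25 months was the lowest of all 9. The log2 fold change was 1.10 (standard error 0.30, edgeR FDR 0.0413).

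*bta-miR-148b*, the member encoded within *COPZ1*, stood at 1510, 1455 and 1292 CPM at 25 months in EX and at 2824, 2767 and 2219 CPM at 30 months. These groups did not overlap on the CPM scale either, and the ratios of 30 to 25 months were 1.87, 1.90 and 1.72 in steers 1, 2 and 3. After normalization by TMM, a trimmed mean that corrects for a few very abundant miRNAs, the log2 fold change was 0.42 (standard error 0.21, edgeR FDR 0.22).

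Of the 345 miRNAs tested in EX, 14.8% passed FDR under 0.05 in this comparison, and 4.06% passed as higher at 30 months, among them 2 of the 3 members. All 3 libraries at 30 months were above all 3 at 25 months for each member, as for 18% of the miRNAs tested in EX. The median log2 fold change of all miRNAs was −0.51, and each of the members lay above it.

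In FC, *bta-miR-148a* stood at 6753, 8160 and 3957 CPM at 25 months and at 10303, 15093 and 13558 CPM at 30 months. The groups did not overlap, and the log2 fold change was 0.96 (standard error 0.23, edgeR FDR 0.0261).

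*bta-miR-152* in FC stood at 1086, 1077 and 472 CPM at 25 months and at 1760, 2174 and 2271 CPM at 30 months. Again the groups did not overlap and steer 3 at 25 months was the lowest library. The log2 fold change was 1.21 (standard error 0.27, edgeR FDR 0.0261), the 29th highest of the 358 miRNAs tested.

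*bta-miR-148b* in FC stood at 3075, 2408 and 3047 CPM at 25 months and at 6297, 4372 and 5139 CPM at 30 months, without overlap. Its log2 fold change of 0.76 (standard error 0.23) had an edgeR FDR of 0.0509, just outside the threshold. DESeq2 gave an FDR of 0.0111 and the edgeR likelihood ratio test 0.0197.

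Of the 358 miRNAs tested in FC, 18.7% passed FDR under 0.05 and 6.98% passed as higher, among them the same 2 members. For 20.7% of them, the 3 members included, all 3 libraries at 30 months were above all 3 at 25 months, and the median log2 fold change of all was −0.20. Relative to that median, every member stood higher. With the count table as deposited, not recomputed, *bta-miR-148a* (log2 fold change 0.93, edgeR FDR 0.0630) and *bta-miR-152* (1.17, FDR 0.0654) did not pass in FC.

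The rises from 25 to 30 months differed among steers. For *bta-miR-152* they were 1.81, 2.31 and 6.23 times in EX and 1.62, 2.02 and 4.81 times in FC on the CPM scale, for steers 1, 2 and 3. Steer 3 at 25 months was the animal with the highest *bta-miR-150*, a miRNA of lymphocytes, at 276263 CPM in EX and 194329 CPM in FC, against 94908 and 120314 CPM in EX of the other steers. With any of the steers left out, neither *bta-miR-148a* (edgeR FDR 0.144 to 0.180) nor *bta-miR-152* (0.109 to 0.195) passed in EX. In FC *bta-miR-148a* failed in each case (0.0922 to 0.111), and *bta-miR-152* passed without steer 2 (0.0370) but not without steer 1 (0.0907) or steer 3 (0.112). The log2 fold changes in these fits were 0.69 to 0.96 for *bta-miR-148a* and 0.69 to 1.33 for *bta-miR-152* in EX, and 0.79 to 1.13 and 0.91 to 1.42 in FC. Without the EX library of steer 3 at 25 months alone, the log2 fold changes in EX were 0.70 for *bta-miR-148a* (edgeR FDR 0.12) and 0.77 for *bta-miR-152* (FDR 0.140), so neither passed. Without its FC library, *bta-miR-152* had 0.97 (FDR 0.0626), and *bta-miR-148b* 0.92 (FDR 0.0487), now within the threshold. In EX, *bta-miR-148a* also lost the call without the steer as a block (log2 fold change 0.79, FDR 0.119), and scaling to *bta-miR-93*, the control miRNA of the study's qPCR, lowered all log2 fold changes and took the calls of *bta-miR-148a* and *bta-miR-152* in both fractions. *bta-miR-93* itself had log2 fold changes of 0.37 in EX (edgeR FDR 0.469) and 0.54 in FC (FDR 0.102), where DESeq2 called it higher. Both EX calls were also lost without a filter (FDR 0.0562 for *bta-miR-148a* and 0.0549 for *bta-miR-152*). With only the ages of 25 and 30 months in the fit, all of these calls were lost, at FDR 0.0881 and 0.0971 in EX and 0.0829 and 0.0632 in FC.

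The 3 miRNAs on the list for lymphocytes (*bta-miR-150*, *bta-miR-342* and *bta-miR-155*) all fell from 25 to 30 months in both fractions by the edgeR test, as did 10.7% of the miRNAs tested in EX and 11.7% in FC. Their summed level ranged from 115350 to 327337 CPM in EX at 25 months and from 14429 to 28250 CPM at 30 months, and in FC from 82176 to 233288 and from 15335 to 28035 CPM. Summed liver markers (*bta-miR-122*, *bta-miR-192* and *bta-miR-885*) ranged from 32179 to 119733 CPM in EX at 25 months and from 98944 to 192794 CPM at 30 months. In FC they ranged from 49092 to 151014 and from 115629 to 208417 CPM, and the ages overlapped in both fractions. By edgeR 0 of the 3 rose in either fraction, and *bta-miR-885* fell in FC (log2 fold change −7.14, FDR 0.00673). DESeq2 called 2 of them higher in EX, and 1 higher and 1 lower in FC. Of the 3 miRNAs of red cells, 1 fell in EX (*bta-miR-451*) and 0 in FC by edgeR, and DESeq2 called 2 lower in EX and 1 in FC. At an unadjusted p under 0.05 there were 2 and 1, beside 29.6% of all miRNAs tested in EX and 37.2% in FC. For DESeq2 the share of all miRNAs at FDR under 0.05 was not counted, here and for the lists further below. Of the 3 of platelets and myeloid cells 0 passed in either fraction by edgeR or DESeq2, with 0 at an unadjusted p under 0.05. The part of these cell types in the rise of the members was not tested.

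Compared with 20 months, the CPM at 30 months was higher in 3 of 3 steers for every member in both fractions, but no member passed the test. The smallest of these rises was 1.05 times, for *bta-miR-148b* in EX of steer 3. The share of all miRNAs with a higher CPM in 3 of 3 steers was not counted. In EX at 20 months *bta-miR-148a* stood at 3643, 5401 and 3884 CPM, and in FC at 7446, 9450 and 8642 CPM. All libraries at 30 months were above these, as for 17.7% of the miRNAs tested in EX and 14.8% in FC. The log2 fold changes of *bta-miR-148a* were 0.55 in EX (edgeR FDR 0.112) and 0.61 in FC (FDR 0.12).

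*bta-miR-152* at 20 months stood at 1058, 806 and 715 CPM in EX and at 1483, 934 and 1109 CPM in FC. The 30 months libraries were again all higher, with log2 fold changes of 0.88 in EX (edgeR FDR 0.0920) and 0.86 in FC (FDR 0.0804). *bta-miR-148b* was the member whose groups overlapped: at 20 months it had 2332, 1436 and 2111 CPM in EX and 4579, 2384 and 4381 CPM in FC. Its log2 fold changes were 0.09 (FDR 0.821) and 0.54 (FDR 0.163). In EX, 14.2% of the miRNAs passed FDR under 0.05 in this comparison, and in FC 7.26%. All 3 libraries at 30 months stood above all 6 earlier ones for 13.6% of the miRNAs in EX and 10.3% in FC, *bta-miR-148a* and *bta-miR-152* among them in both.

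DESeq2 gave FDR values of 0.00327 and 0.00715 for *bta-miR-148a* and *bta-miR-152* in EX from 20 to 30 months, and 0.0465 and 0.0224 in FC, all within the threshold. By the edgeR likelihood ratio test *bta-miR-152* passed in FC (FDR 0.0345). With RLE size factors in the edgeR quasi-likelihood test, *bta-miR-152* passed in EX (FDR 0.0391). DESeq2 differs from the edgeR test in both the size factors and the test. This comparison and that with 25 months share the libraries at 30 months.

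Between 20 and 25 months no member passed the edgeR test in either fraction, and all 6 fitted log2 fold changes lay between −0.35 and −0.22. The unadjusted p values of the members were between 0.155 and 0.472. Few other miRNAs passed: 0.29% in EX and 0 of 358 in FC, where 13 had an unadjusted p under 0.05 and DESeq2 called 0. Steer 3 had the lowest ratios of *bta-miR-148a*, at 0.538 of its level at 20 months in EX and 0.458 in FC, and of *bta-miR-152*, at 0.464 and 0.426. In steer 2 the ratios of all members lay between 0.863 and 1.15. Without the EX library of steer 3 at 25 months, the log2 fold change of *bta-miR-152* in EX turned to 0.08.

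**Figure D2:**
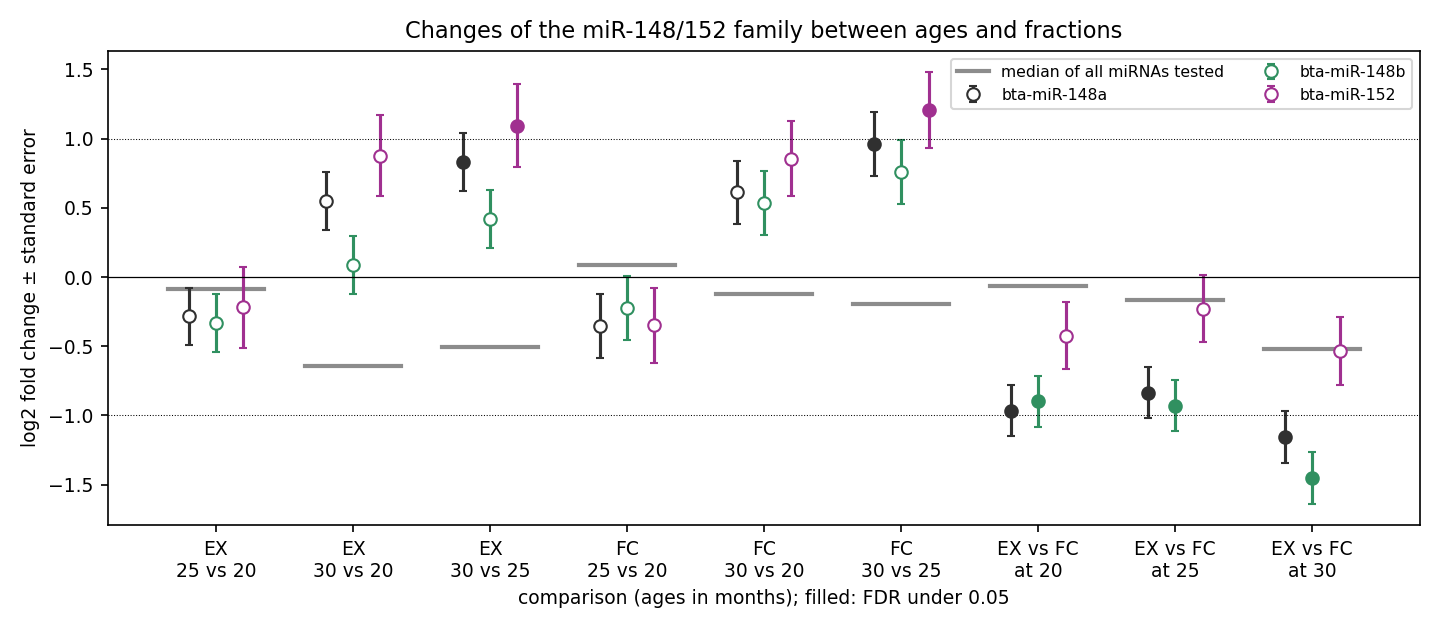
Fitted log2 fold changes (points) with standard errors (bars) of the 3 members in 9 comparisons, filled where FDR was under 0.05, with a grey line at the median of all miRNAs tested in that comparison. The members lie above the grey line in each comparison of 30 months with an earlier age, and *bta-miR-148a* and *bta-miR-148b* lie below it in each comparison of EX with FC.

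The second question was how the members divide between the fractions of the same plasma. *bta-miR-148a* and *bta-miR-148b* were less abundant in EX than in FC at every age, by 1.78 to 2.74 times as fitted, and passed the test at each age. *bta-miR-152* stood closer to equal levels and did not pass at any age with the steer as a block. That fit does not pair the EX and FC libraries of a plasma sample. With these libraries paired, *bta-miR-152* passed as lower in EX at the oldest age only, as given below.

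The CPM ratio of FC to EX within a plasma sample had a lowest value of 1.46, a median of 1.84 and a highest value of 2.34 over the 9 samples for *bta-miR-148a*. For *bta-miR-148b* these were 1.58, 2.04 and 2.36, and for *bta-miR-152* 1.03, 1.16 and 1.55. Every ratio of every member was above 1, as was so in all 9 plasma samples for 6.36% of the 330 miRNAs tested in both fractions.

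At 20 months the log2 fold change of EX against FC was −0.97 for *bta-miR-148a* (standard error 0.18, edgeR FDR 0.0130) and −0.90 for *bta-miR-148b* (standard error 0.18, FDR 0.0149). Only 3 of the 330 miRNAs (0.909%) passed FDR under 0.05 as lower in EX at that age. The third is *bta-miR-1246*, named after its values were seen.

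At 25 months 2 of 330 miRNAs (0.606%) passed as lower in EX, and they are *bta-miR-148a* (log2 fold change −0.83, standard error 0.18, edgeR FDR 0.0247) and *bta-miR-148b* (−0.93, standard error 0.18, FDR 0.0110). *bta-miR-152* had −0.43 at 20 months (FDR 0.656) and −0.23 at 25 months (FDR 0.973). The median of all 330 miRNAs was −0.06 at 20 months and −0.17 at 25 months.

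These calls at 20 and 25 months rest on all 3 steers: with any of them left out, neither member passed, at log2 fold changes from −1.09 to −0.65. They were also lost when scaled to *bta-miR-93*, and for *bta-miR-148a* at both ages (FDR 0.357 and 0.675) and *bta-miR-148b* at 20 months (FDR 0.0712) without the steer as a block.

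At 30 months the log2 fold change was −1.16 for *bta-miR-148a* (standard error 0.19, edgeR FDR 0.000805) and −1.45 for *bta-miR-148b* (standard error 0.19, FDR 0.000173), and both were DE-miRNAs, as were 17.6% of the 330. *bta-miR-148a* kept FDR under 0.05 but fell short of the fold limit with RLE size factors or DESeq2 (−0.90 each), with the count table as deposited (−0.93) and scaled to *bta-miR-93* (−0.74). Here 19.1% of the miRNAs passed as lower in EX and the median of all was −0.52. On the CPM scale the FC to EX ratios at 30 months were 1.59, 1.46 and 1.84 for *bta-miR-148a* and 2.23, 1.58 and 2.32 for *bta-miR-148b* in steers 1, 2 and 3, less than the fitted values, which also hold the TMM factors. *bta-miR-152* had −0.53 (standard error 0.24, FDR 0.138), close to that median, with CPM ratios of 1.03, 1.04 and 1.10. With the libraries of a plasma sample paired, its value was −0.53 with an edgeR FDR of 0.00865.

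Whether the age change itself differed between fractions was tested as an interaction over the 18 libraries, and no member passed. The largest difference was that of *bta-miR-148b* from 20 to 30 months, −0.55 (standard error 0.26, edgeR FDR 0.20), beside a median of −0.51 over all 330 miRNAs, of which 7.58% passed. With the libraries of a plasma sample paired, it was −0.57 with an FDR of 0.0445.

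**Figure D3:**
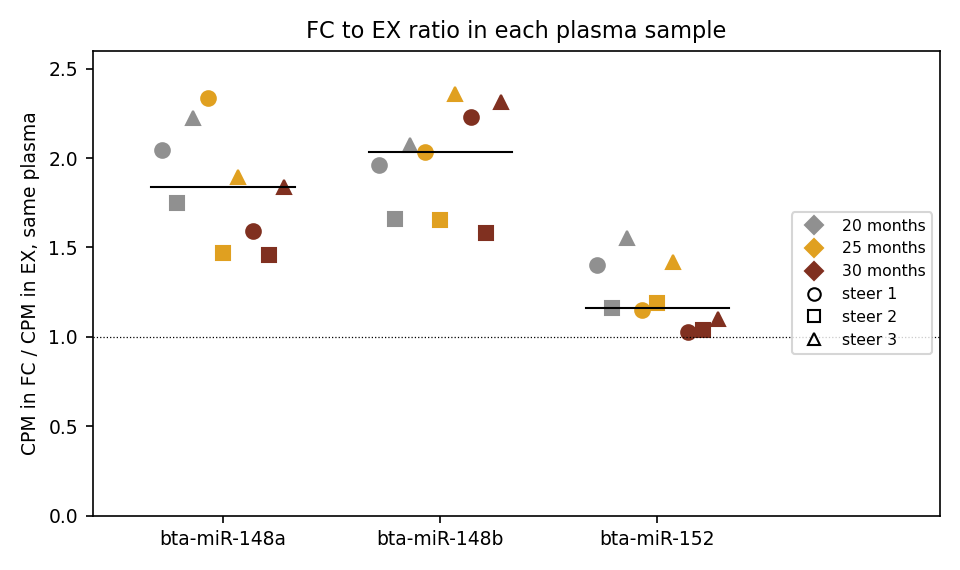
CPM in FC divided by CPM in EX of the same plasma sample, for each member, with colours for age, symbols for steers, a black line at the median of 9 samples and a dotted line at equal levels. The medians are 1.84, 2.04 and 1.16, and all points lie above 1.

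The balance among the members can be read within a library, where neither its size nor the other miRNAs enter. The share of *bta-miR-152* in the summed family was larger in EX than in FC, at 13.5 ± 3.23% against 9.12 ± 1.62% (mean ± SD, 9 libraries each). That of *bta-miR-148a* was 61.2 ± 7.09% and 62.9 ± 7.37%, and that of *bta-miR-148b* 25.3 ± 6.89% and 28.0 ± 7.58%.

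Relative to *bta-miR-148b*, *bta-miR-152* was 1.62 times higher in EX than in FC of the same plasma (mean difference of log2 ratios 0.69, SD 0.26, n = 9), in 9 of 9 samples. An exact two-sided sign-flip test gave p = 0.00391, the smallest value that 9 pairs allow. Relative to *bta-miR-148a* it was 1.5 times higher (0.58, SD 0.21), also in 9 of 9 samples with exact p = 0.00391. *bta-miR-148a* and *bta-miR-148b* did not differ in this way beyond the spread, with a mean difference of 0.11 (SD 0.23), above 0 in 5 of 9 samples (exact p = 0.199).

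The 9 plasma samples come from 3 animals, and with the ages of a steer averaged the exact p is 0.25, the smallest possible with 3 steers. These p values are not adjusted, and 15 such ratio comparisons were made, of which 12 concern ages. Between ages the exact sign-flip test of 3 steers cannot give a p under 0.25. From 20 to 30 months the ratio of *bta-miR-152* to *bta-miR-148b* was higher in EX of 3 of 3 steers (mean log2 difference 0.77, SD 0.60), and in 2 of 3 in FC (0.31, SD 0.51), differences that this test cannot pass.

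A further pattern set steer 2 apart from the other animals. In steer 2 the ratio of *bta-miR-148a* to *bta-miR-148b* lay between 3.39 and 3.96 in all 6 libraries, with a mean of 3.69 ± 0.222 (SD). It was 1.87 ± 0.314 in steer 1, with a range of 1.56 to 2.29, and 2.12 ± 0.742 in steer 3, with a range of 1.30 to 3.33. The ranges of steer 2 and of the others did not overlap, while those of steers 1 and 3 did. The highest ratio of steer 3 (3.33) was close to the lowest of steer 2 (3.39). How often other pairs of miRNAs set a steer apart in this way was not counted. In steer 2 *bta-miR-148a* had the highest CPM of the 3 steers in each of the 6 groups, and *bta-miR-148b* the lowest in 4 of them. With 3 animals and 1 library per animal, fraction and age, this is a description without a test.

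In steer 3 the ratio of *bta-miR-148b* to *bta-miR-152* was 3.89 in EX and 6.45 in FC at 25 months, the highest of each fraction, and 1.07 and 2.26 at 30 months.

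**Figure D4:**
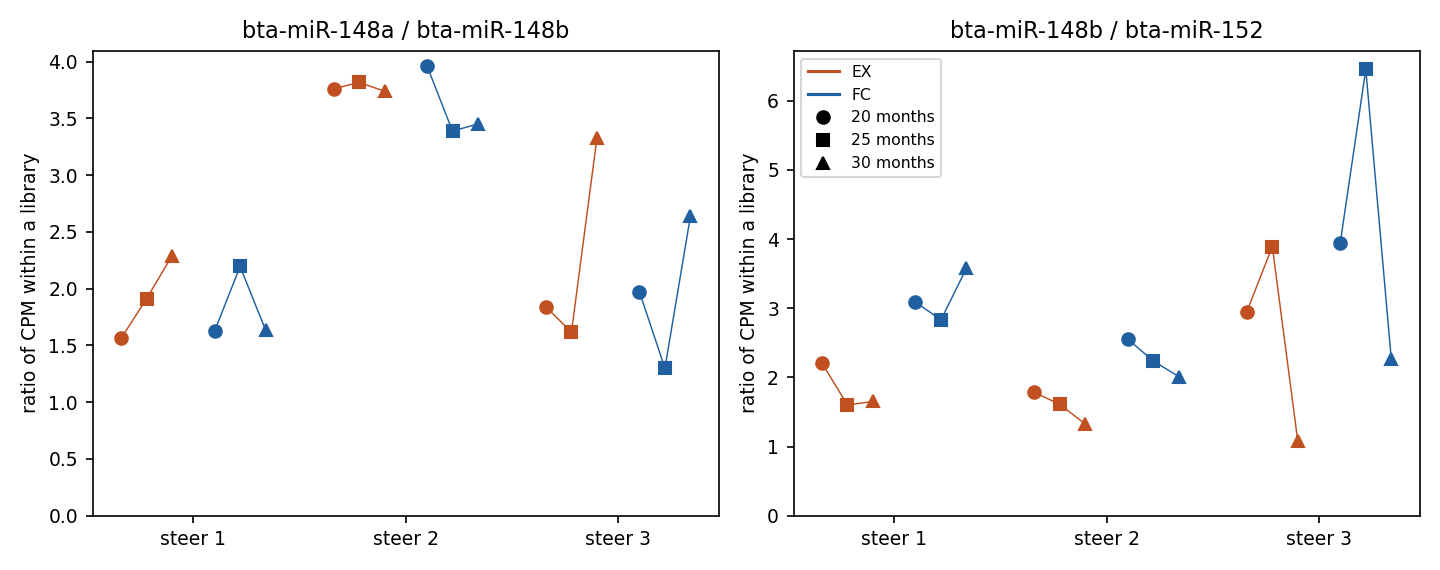
Ratio of CPM within a library of *bta-miR-148a* to *bta-miR-148b* (left) and of *bta-miR-148b* to *bta-miR-152* (right) for each steer, with EX in orange, FC in blue and symbols for age. The left ratio of steer 2 stays between 3.39 and 3.96, and the right ratio of steer 3 falls from 6.45 to 2.26 in FC and from 3.89 to 1.07 in EX between 25 and 30 months.

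The miRNAs with the most similar profile differed among the members. The likeness was taken as Pearson's r of log2(CPM + 1) over the 18 libraries among miRNAs tested in both fractions, and it is given without a test, since all points share the libraries, the steers and the composition of each library. For *bta-miR-148a* the nearest were *bta-miR-192* (r = 0.90), a liver and gut miRNA, *bta-miR-30a-5p* (0.89) and *bta-miR-7* (0.86). Within EX and within FC alone these were 0.89 and 0.88, 0.92 and 0.86, and 0.89 and 0.79, so *bta-miR-192* was not the nearest of the 3 within EX. *bta-miR-148b* had *bta-miR-30d* (0.88), *bta-miR-425-3p* (0.83) and *bta-miR-151-3p* (0.78). Within EX and within FC alone these were 0.78 and 0.90, 0.55 and 0.85, and 0.86 and 0.96, so the order of the 3 is not kept within the fractions.

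For *bta-miR-152* they were *bta-miR-29c* (0.93), *bta-miR-199c* (0.92) and *bta-miR-429* (0.92). Within EX and within FC alone, over 9 libraries each, these were 0.954 and 0.914, 0.939 and 0.896, and 0.925 and 0.916. Thus *bta-miR-29c* was not the nearest of the 3 within FC. Within the family r was 0.81 between *bta-miR-148a* and *bta-miR-152*, 0.72 between *bta-miR-148a* and *bta-miR-148b*, and 0.61 between *bta-miR-148b* and *bta-miR-152*. The order of the pairs depends on pooling the fractions: within EX and within FC, r was 0.86 and 0.90 between *bta-miR-148a* and *bta-miR-152*, 0.64 and 0.45 between *bta-miR-148a* and *bta-miR-148b*, and 0.78 and 0.67 between *bta-miR-148b* and *bta-miR-152*.

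Other miRNAs of the same pathways were followed as lists. Repressors of DNA methyltransferases other than the family are the *miR-29* miRNAs, which act on *DNMT3A* and *DNMT3B*. In FC, 2 of the 4 tested rose from 25 to 30 months, beside 6.98% of all miRNAs tested: *bta-miR-29c*, at 6889 ± 2603 and 15499 ± 2191 CPM (log2 fold change 1.11 with standard error 0.23, edgeR FDR 0.0179), and *bta-miR-29d-3p* (1.32, standard error 0.32, FDR 0.0265). The most abundant, *bta-miR-29a*, had −0.43 (FDR 0.381). In EX 1 of 4 fell, *bta-miR-29b* (−1.11, FDR 0.0269), beside 10.7% of all miRNAs, and *bta-miR-29c* had 0.77 (FDR 0.0653). DESeq2 called 1 of the 4 higher and 1 lower in EX, and 2 higher in FC. The list's medians were 0.10 in EX and 0.34 in FC, beside −0.51 and −0.20 over all.

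Of 11 miRNAs known to act on cholesterol and lipoprotein genes, 1 rose from 25 to 30 months in EX and 0 in FC by the edgeR test, beside 4.06% of all miRNAs tested in EX and 6.98% in FC. The riser, *bta-miR-130b*, had 187 ± 175 CPM in EX at 25 months and 1007 ± 456 CPM at 30 months. Its log2 fold change was 2.25 in EX (standard error 0.37, edgeR FDR 0.00730) and in FC 0.79 (FDR 0.0691). In each fraction 4 of the 11 had an unadjusted p under 0.05, beside 29.6% of all miRNAs tested in EX and 37.2% in FC. DESeq2 called 3 higher and 2 lower in EX, and 3 higher and 1 lower in FC. The list's medians were 0.08 in EX and 0.29 in FC, beside −0.51 and −0.20 over all miRNAs. The more abundant members of the list did not pass, with *bta-miR-122* at 1.04 (FDR 0.165) in EX and 0.72 (FDR 0.287) in FC, *bta-miR-223* at −0.23 and 0.67, and *bta-miR-27b* at 0.08 and 0.66.

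*bta-miR-130b* also belongs to miRNAs that carry the family's AGUGCA 1 base nearer to the 5′ end. The letters AGUGCA occur in 22 of the 1071 mature sequences, at position 3 in the 3 members alone and at position 2 in 5 others, *bta-miR-130a*, *bta-miR-130b*, *bta-miR-301a*, *bta-miR-301b* and *bta-miR-454*. The 2 of these that passed the test in EX are shown with the shared letters in capitals.
bta-miR-130a: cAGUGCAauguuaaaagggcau
bta-miR-130b: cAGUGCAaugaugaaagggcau
With the shift by 1 base, bases 2 to 8 differ from those of the family, so they count as another seed. In EX, 2 of these 5 rose from 25 to 30 months, beside 4.06% of all miRNAs tested. They are *bta-miR-130b* as given above and *bta-miR-130a*, at 326 ± 135 and 1142 ± 216 CPM (log2 fold change 1.43 with standard error 0.28, edgeR FDR 0.0117). The median of the 5 was 1.43, beside −0.51 over all, and DESeq2 called 3 higher. In FC 0 of 5 passed the edgeR test, beside 6.98% of all miRNAs that passed as higher, and 3 had an unadjusted p under 0.05, beside 37.2%. DESeq2 called 2 higher, and the median was 0.70, beside −0.20 over all.

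Among liver miRNAs tested, 0 of 4 passed the edgeR test from 25 to 30 months in EX, beside 14.8% of all miRNAs. There 1 had an unadjusted p under 0.05, beside 29.6% of all, and DESeq2 called 2 higher. In FC 1 of 5 rose, *bta-miR-194* (log2 fold change 1.11, standard error 0.26, edgeR FDR 0.0261), and 1 fell, *bta-miR-885*, listed at 0 in 2 libraries at 30 months, beside 6.98% of all miRNAs higher and 11.7% lower. DESeq2 called 2 higher and 1 lower in FC. *bta-miR-194* was listed at 0 in 7 of 9 EX libraries. *bta-miR-192*, the nearest to *bta-miR-148a* in profile over the 18 pooled libraries, had 0.73 (FDR 0.145) in EX and 0.84 (FDR 0.0593) in FC. *bta-miR-802* was not among the names in the table.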

How the data were processed

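Small RNA libraries of 9 plasma samples, each as EX and FC, were analysed. The authors trimmed the reads (cutadapt 5.0, Trimmomatic 0.39), inspected them with FastQC 0.12.1, mapped them to a Japanese Black genome built on the bovine reference ARS-UCD 1.2, and quantified miRBase miRNAs with miRDeep2. The authors deposited expected counts per mature miRNA, in which shared reads are divided, so that part of them are not whole, and CPM values made with edgeR 4.0.16. Both are relative to the miRNA total of a library, so a few abundant miRNAs affect all others, and PCR copies were not removed.

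In 4 FC libraries 77 to 101 counts that did not match CPM times the library total (tolerance 0.001 of the value or 0.02 counts) were recomputed from CPM. The other 14 libraries were used as deposited. No library is a copy of another of its group, since the counts of all 18 such pairs differed with a chi-square of at least 196 for each degree of freedom. The row named Total was left out.

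Counts were rounded. Within each fraction, a miRNA was kept if 3 or more of 9 libraries exceeded 5 CPM. After TMM normalization, age was tested with edgeR 4.0.16 (R 4.3.3, limma 3.58.1) and its quasi-likelihood test, with steer as a block. EX and FC were compared over 18 libraries and the 330 miRNAs of both fractions, with group and steer. P values were adjusted by Benjamini and Hochberg over all miRNAs of a comparison, and a DE-miRNA needs FDR < 0.05 and |log2 fold change| > 1. Standard errors were taken as |log2 fold change| over the root of F. Ratios between members were compared by exact two-sided sign-flip tests (Python 3.11.15, numpy 2.4.6, pandas 2.3.3, scipy 1.17.1), and figures drawn with matplotlib 3.10.9. The scripts were tested on simulated data, in which 200 miRNAs had changes larger than those fitted for the members from 25 to 30 months. Of these, 36.5% were called in EX and 71% in FC, so many such changes went uncalled. Of the calls, 2.67% and 4.05% were false.

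Libraries pair by steer because, by the study's sample key, the number of a library stands for the animal, sampled at each age. The mean correlation of deviations was 0.023 in EX and 0.089 in FC for the same steer, against −0.012 and −0.045 for different steers, and 0.234 for EX and FC of the same plasma. Alternatives were DESeq2 1.42.0, the likelihood ratio test, RLE size factors, scaling to *bta-miR-93*, no filter, no steer block, a plasma block, the deposited rows, only the ages compared, and each steer left out. Leaving out the library of steer 3 at 25 months was added after the data were seen.

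The members, lists and tests were chosen with earlier results of these data known. Named miRNAs are the members, names of the same number, the 3 nearest in profile to each member, up to 4 of the most abundant of each list, and *bta-miR-93*. Outside this rule, *bta-miR-1246* and less abundant list members that passed a test were named after their values were seen, and *bta-miR-301b* and *bta-miR-802* to complete their lists. Coordinates are not given, since the gene table has another build than the mapping. The qPCR and carcass data were not analysed here.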

Additional observations from a re-analysis of the deposited data

How the results depend on the processing

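Of 264 member values under settings other than leaving out a library, 221 kept their direction and their side of the threshold (FDR 0.05), 20 lost the call, 11 gained it and 12 changed sign, and the cause of these was not tested. Of 111 member values with a steer or library left out, 79 kept both, 26 lost the call, 5 changed sign and 1 gained the call. The results that changed sign passed the test neither before nor after. The comparison of EX with FC at 30 months for *bta-miR-148a* and *bta-miR-148b* kept FDR under 0.05 in every setting run, steers left out included, though *bta-miR-148a* was under the fold limit with RLE and DESeq2 (−0.90 each), the rows as deposited (−0.93) and *bta-miR-93* (−0.74), and the ratios of *bta-miR-152* to the other members kept their direction in EX against FC. Every member had at least 809 counts in every library, and each group holds 3 animals.

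Values below are log2 fold changes. With DESeq2, *bta-miR-148a* and *bta-miR-152* from 20 to 30 months gained the call in EX (0.66 and 0.97) and FC (0.63 and 0.88), and *bta-miR-148b* in FC from 25 to 30 months (0.78). With RLE size factors it was gained by *bta-miR-152* in EX from 20 to 30 months (0.98) and *bta-miR-148b* in FC from 25 to 30 months (0.78), and with the likelihood ratio test by *bta-miR-152* in FC from 20 to 30 months (0.86) and *bta-miR-148b* in FC from 25 to 30 months (0.76). Without a filter, *bta-miR-148a* and *bta-miR-152* in EX from 25 to 30 months lost it (0.83 and 1.10). With only the ages compared in the fit, they lost it in EX (0.82 and 1.09) and FC (0.98 and 1.21), and with the rows as deposited in FC (0.93 and 1.17).

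Without the replicate block, *bta-miR-148a* lost the call in EX from 25 to 30 months (0.79) and between fractions at 20 (−0.93) and 25 months (−0.78), and *bta-miR-148b* between fractions at 20 months (−0.91). With the plasma sample as replicate block, *bta-miR-152* gained it between fractions at 30 months (−0.53), and *bta-miR-148b* in the difference of the change from 20 to 30 months between fractions (−0.57). The block changed no other call of the members.

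Scaled to *bta-miR-93*, the calls of *bta-miR-148a* and *bta-miR-152* from 25 to 30 months were lost in EX (0.49 and 0.81) and FC (0.42 and 0.67), those of *bta-miR-148a* and *bta-miR-148b* between fractions at 20 (−0.75 and −0.66) and 25 months (−0.82 and −0.89) too, and *bta-miR-148b* in EX from 20 to 30 months turned to −0.27. This scaling moved the median of all miRNAs from −0.51 to −0.82 in EX and from −0.20 to −0.74 in FC from 25 to 30 months, and between fractions at 30 months from −0.52 to −0.09 (RLE −0.26). The share of miRNAs with a higher level went from 38.6 to 28.7% in EX and from 44.7 to 26.5% in FC from 25 to 30 months, and in EX against FC at 30 months from 29.1 to 47.0%.

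In the difference of the change from 20 to 30 months between fractions, which passed for neither, *bta-miR-148a* and *bta-miR-152* turned positive with DESeq2 (0.056 and 0.13), RLE (0.057 and 0.13), *bta-miR-93* (0.0032 and 0.079) and the rows as deposited (0.065 and 0.13), and *bta-miR-152* without a filter (0.0054). From 25 to 30 months both did with *bta-miR-93* (0.072 and 0.14).

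The ranges with a steer left out, or only its 25 months library for steer 3 (chosen after the data were seen), were as follows. From 25 to 30 months they were 0.69 to 0.96 for *bta-miR-148a* and 0.69 to 1.33 for *bta-miR-152* in EX, and 0.79 to 1.13, 0.61 to 0.99 for *bta-miR-148b*, and 0.91 to 1.42 in FC. With a steer left out, *bta-miR-148a* and *bta-miR-152* lost their call in EX every time (FDR 0.109 or more), and in FC only *bta-miR-152* without steer 2 kept its call (FDR 0.0370). In EX the ranges were −0.055 to 0.27 for *bta-miR-148b* from 20 to 30 months, and −0.30 to 0.080 for *bta-miR-152* from 20 to 25 months. Between fractions they were −1.09 to −0.90 for *bta-miR-148a* and −1.01 to −0.85 for *bta-miR-148b* at 20 months, and −0.98 to −0.65 and −1.03 to −0.83 at 25 months. The difference of the change between fractions from 20 to 30 months had −0.18 to 0.058 for *bta-miR-152*. In FC the log2 ratio of *bta-miR-148a* to *bta-miR-148b* changed by −0.20 to 0.52 from 25 and by −0.095 to 0.21 from 20 months, and that of *bta-miR-152* to *bta-miR-148b* by −0.093 to 0.83 from 25 months.

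The number of DE-miRNAs from 25 to 30 months was 49 in EX (85 with DESeq2, 90 with the likelihood ratio test, 32 with only these ages, 0 to 24 with a steer or library left out) and 56 in FC (10 with the rows as deposited, 30 with only these ages, 87 scaled to *bta-miR-93*, 1 to 54 left out). From 20 to 30 months it was 46 in EX (78, 83, 27 and 20 with DESeq2, the likelihood ratio test, only these ages and *bta-miR-93*, 0 to 12 left out) and 25 in FC (49, 53, 52, 2 and 59 with DESeq2, the likelihood ratio test, no filter, the deposited rows and *bta-miR-93*, 1 to 10 left out). From 20 to 25 months it was 1 in EX (3 with DESeq2, 2 without a filter, 0 with *bta-miR-93*, 0 to 1 left out) and 0 in FC (0 to 1). Between fractions it was 3 at 20 months (7, 5, 6 and 7 with DESeq2, the likelihood ratio test, no filter and the plasma block), 4 at 25 months (9 with DESeq2, 7 with the likelihood ratio test) and 58 at 30 months (24 to 56 left out). The change differed between fractions for 25 miRNAs from 25 to 30 months (40, 41, 16 and 44 with DESeq2, the likelihood ratio test, no filter and the plasma block, 0 to 10 left out) and for 25 from 20 to 30 months (42, 47, 12, 61, 40 and 16 with DESeq2, the likelihood ratio test, no filter, the plasma block, the deposited rows and *bta-miR-93*, 0 to 27 left out).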
